A study of Homo sapiens with 6 samples.

Results

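The genes of the proteasome were followed in HCC827 cells, a human lung adenocarcinoma line that depends on a mutant epidermal growth factor receptor (EGFR), after the EGFR kinase inhibitor erlotinib. The genes were taken by name, as every row of the deposited table whose symbol is PSM followed by a letter from A to G and a number, which gave 48 of 28395 genes. Poly(A)-selected mRNA was sequenced in 6 libraries, 3 from cells given DMSO, the solvent control, and 3 from cells given 1 µM erlotinib, both for 24 h. All 6 came from the same unmodified line, a single patient's tumour cells that carry their EGFR mutation in control and treated dishes alike. The labels do not say whether the 3 libraries of a group came from separate cultures, so the p-values measure the spread between these libraries, which may be technical. The reads assigned to genes numbered 20858083, 24641819 and 21172884 for the control and 21944007, 20760204 and 21678395 for the treated libraries. The erlotinib libraries are numbered 1 to 3 here in the order of the table, whose columns for them carry the numbers 4 to 6 and could not be matched to single samples in the labels. The deposited value of a gene, called signal here, is its reads divided by a size factor of that library, and the size factors ran from 0.882 to 1.08. Libraries of the same group differed by a chi-square per degree of freedom of 4.13 to 24.3 over genes, the largest between DMSO libraries 1 and 2, and libraries of different groups by 201 to 250.

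The proteasome is the barrel-shaped protease that degrades proteins tagged with ubiquitin. Its 20S core consists of stacked rings, the outer ones of alpha subunits that gate the entry and the inner ones of beta subunits, some of which cut the substrate. A 19S cap, made of a base with a ring of ATPases and a lid that removes ubiquitin, recognises and unfolds the substrate, and other caps such as the PSME activators can take its place. In immune cells and under interferon, the catalytic beta subunits are exchanged for inducible ones, which gives the immunoproteasome and alters the peptides available for MHC class I. Dedicated chaperones, the PSMG proteins for the core and some PSMD proteins for the base, guide the assembly.

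The libraries carried the epithelial markers of the labelled line. The 6 epithelial markers together gave a signal of 174698.9, 153281.1 and 162976.8 in the DMSO libraries and 136810.7, 137174.9 and 136864.9 in the erlotinib libraries, with KRT19, a keratin, as the most abundant gene. EPCAM, an epithelial adhesion molecule, gave 9852 ± 235 in DMSO and 9485 ± 281 with erlotinib (SD, n = 3). Among the other epithelial markers, the keratins KRT18 (log2 fold change -1.25, SE 0.07, adjusted p = 1.60e-12), KRT8 (log2 fold change -0.83, SE 0.07, adjusted p = 4.31e-10) and, less, KRT19 (log2 fold change -0.39, SE 0.08, adjusted p = 3.27e-04) fell, and CLDN4, a tight junction gene, rose (log2 fold change 0.93, SE 0.06, adjusted p = 4.75e-11). Of 10 leukocyte markers, 8 had a mean signal below 10, among them CD3D and CD3E, MS4A1 was at 0 in every library, and the summed signal was 166.8, 143.9 and 193.7 in DMSO against 148.6, 142.6 and 128.2 with erlotinib, most of it from CSF1R. Of 6 fibroblast markers, 5 were below 10, and the summed signal was 73.7, 75.2 and 109.2 against 260.2, 222.7 and 215.3, nearly all of it from COL1A1 (log2 fold change 1.47, SE 0.19, adjusted p = 6.78e-07). Of 5 endothelial markers, 3 were below 10, and their sum was 34.0, 15.8 and 24.6 against 58.1, 46.5 and 48.7, with VWF, which had 1 to 7 reads in the DMSO libraries, higher with erlotinib (log2 fold change 2.75, SE 0.64, adjusted p = 6.62e-04, and log2 fold change 1.44 with a pseudocount of 10). The part of these low levels in the results was not tested. In bulk RNA, fewer cells that express a gene and less of its RNA per cell cannot be told apart, and every value is relative to the rest of its library.

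With erlotinib, most of the proteasome genes were lower. Of the 48 genes, 43 had a mean signal of at least 10 and were tested with limma on log2(signal + 1), and 37 of these (86.0%) fell, 3 (7.0%) rose and 3 did not pass the threshold of an adjusted p of 0.05. Among all 14215 genes tested, 35.4% fell and 35.3% rose, and when libraries were scaled to the total count 3955 genes fell and 6156 rose. The median log2 fold change of the 43 genes was -0.70, against 0.02 over all genes tested, whose quartiles were -0.53 and 0.68. Most of the falls were moderate in size. They came to between 0.5 and 1 log2 unit for 22 genes, to at least 1 for 10 genes (23.3%, against 10.8% of all genes tested) and to less for 5. In 37 genes every erlotinib library lay below every DMSO library, against 36.9% of all genes tested, and in 3 genes every erlotinib library lay above, against 36.7%. The groups overlapped in the remaining 3 tested genes, PSMA3, PSMC1 and PSMD4, which are the same 3 that did not pass the threshold. The weakest of the 37 calls was that of PSMA6, with an adjusted p of 0.0306, and it was lost without DMSO library 1 (adjusted p = 0.0511 in limma), DMSO library 3 (0.0607), erlotinib library 2 (0.0576) or erlotinib library 3 (0.128), and when libraries were scaled to the total count (log2 fold change -0.18, adjusted p = 0.270). The 5 genes PSMA8, PSMB3, PSMB8, PSMB9 and PSMB11 were not tested because they had no or nearly no reads.

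**Figure D1:**
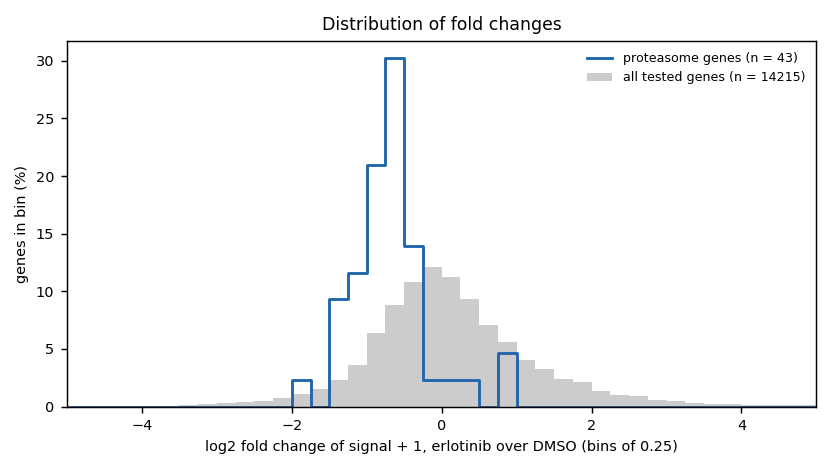
Percent of genes (vertical axis) in bins of 0.25 of the log2 fold change of signal + 1, erlotinib over DMSO (horizontal axis), for the 14215 genes tested (grey bars) and the 43 proteasome genes tested (blue line). The proteasome genes centre near -0.70, with PSMB10 and PSME2 set apart on the right, while all genes tested centre near 0.02.

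**Figure D2:**
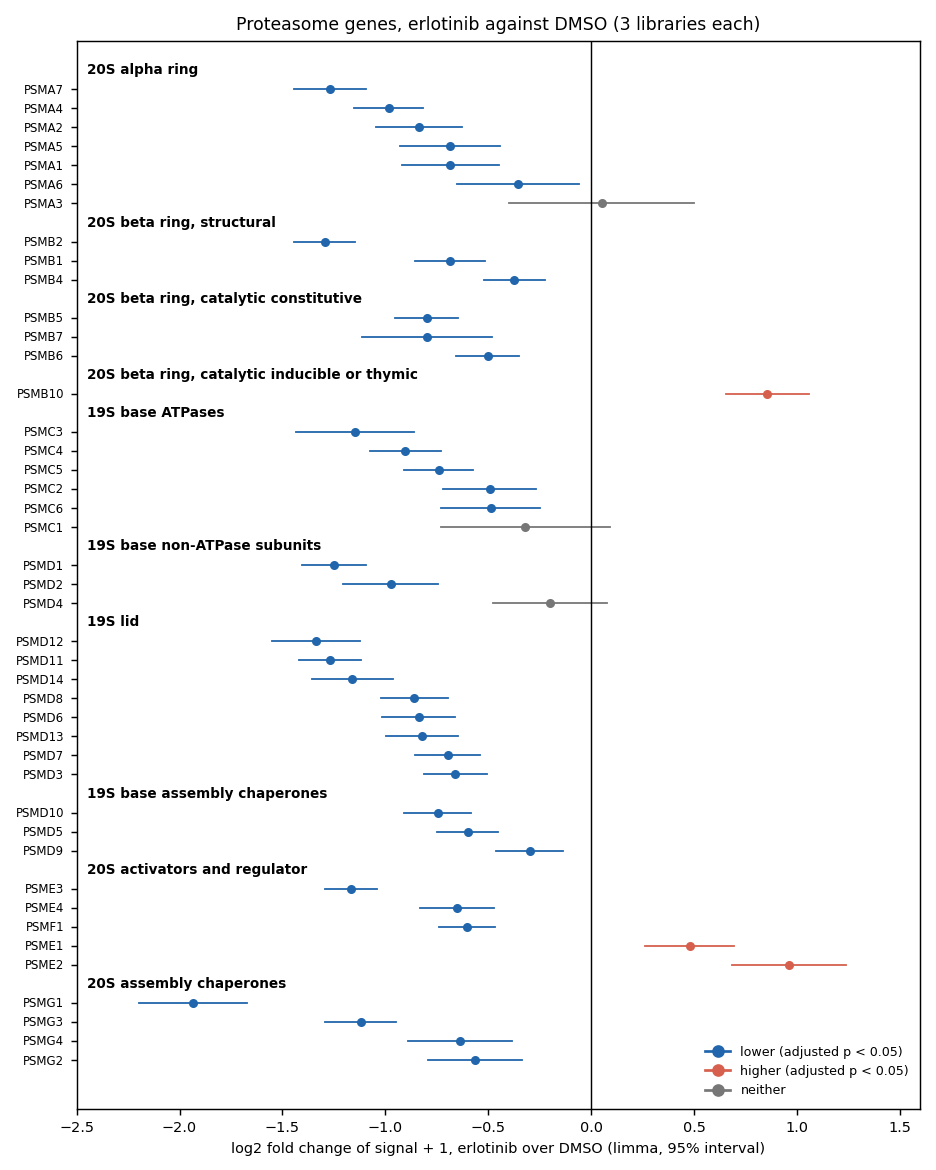
Log2 fold change of signal + 1 (horizontal axis), erlotinib over DMSO, of the 43 tested proteasome genes, grouped by role, with 95% intervals from limma over 3 libraries each. Of these genes 37 lie on the left in blue, PSMB10, PSME1 and PSME2 lie on the right in red, and PSMA3, PSMC1 and PSMD4 are grey with intervals that cross 0.

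In the alpha ring of the core, 6 of 7 tested genes fell and the median log2 fold change was -0.69. The 2 largest changes were those of PSMA7 and PSMA4, whose products are alpha subunits. Values in single libraries are signals, listed from library 1 to 3 of each group in the order of the table. PSMA7 gave 3488, 2805 and 3265 in DMSO and 1392, 1331 and 1230.0 with erlotinib (log2 fold change -1.27, SE 0.08, adjusted p = 2.41e-11). PSMA4 gave 2782, 3225 and 2591 in DMSO and 1439, 1438 and 1452 with erlotinib (log2 fold change -0.98, SE 0.08, adjusted p = 7.37e-10). The erlotinib libraries of both genes were close together and far below each of the DMSO libraries. PSMA2, PSMA5 and PSMA1 fell by 0.84, 0.69 and 0.68 log2 units. PSMA6 gave 239, 239.6 and 243 in DMSO and 202, 192 and 170.4 with erlotinib, a smaller fall (log2 fold change -0.36, SE 0.14, adjusted p = 0.0306). PSMA3 gave 69.2, 89.2 and 87.8 in DMSO and 79.4, 81.2 and 93.6 with erlotinib, low levels that overlapped between the groups. Its interval ran from -0.40 to 0.50 log2 units, so a change within that range cannot be told from none here. The other alpha gene, PSMA8, which encodes the alpha subunit of the testis, had no reads in any library, and a count of 0 allows up to 3 reads per library.

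In the beta rings, every tested gene of the standard core fell. Of the structural subunits PSMB1, PSMB2 and PSMB4 fell, with a median log2 fold change of -0.69. PSMB2 gave 4321, 4407 and 3967 in DMSO and 1679.5, 1811 and 1678 with erlotinib (log2 fold change -1.30, SE 0.07, adjusted p = 1.17e-12). PSMB1 gave 1950.0, 1863 and 1651 in DMSO and 1142, 1153 and 1093 with erlotinib (log2 fold change -0.69, SE 0.08, adjusted p = 1.99e-07). PSMB4 fell less (log2 fold change -0.37, SE 0.07, adjusted p = 9.11e-05). When libraries were scaled to the total count, its log2 fold change was -0.19 and still passed the threshold. Each of the 3 had its highest erlotinib library below its lowest DMSO library.

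The catalytic subunits of the standard core are PSMB5, which carries the chymotrypsin-like site that bortezomib blocks, PSMB6, which carries the caspase-like site, and PSMB7, which carries the trypsin-like site. PSMB5 gave 8298, 6654 and 7144 in DMSO and 4118, 4288 and 4237 with erlotinib (log2 fold change -0.80, SE 0.07, adjusted p = 5.31e-09). PSMB7 gave 277, 271 and 235 in DMSO and 134, 166 and 149.8 with erlotinib (log2 fold change -0.80, SE 0.15, adjusted p = 8.83e-05). PSMB6 was 2101 ± 80.6 in DMSO and 1482 ± 45.0 with erlotinib (SD, n = 3) and fell by 0.50 log2 units (SE 0.07, adjusted p = 3.40e-06). The fall was present for all of the catalytic sites, with groups that did not overlap, and was smallest for PSMB6. PSMB7 overlaps a long non-coding RNA gene, LOC100129034, whose signal was 3264 in DMSO and 5996 with erlotinib and so moved the other way (log2 fold change 0.88, adjusted p = 5.12e-10). The strand that was counted is not given in the sources used here, so reads of these overlapping genes may not be told apart.

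PSMB10, the inducible counterpart of PSMB7 in the immunoproteasome (chr16:67934506-67936850, minus strand, GRCh38), was the sole core gene among those tested to rise. PSMB10 gave 794, 631 and 637 in DMSO and 1182, 1270.1 and 1261 with erlotinib (log2 fold change 0.86, SE 0.10, adjusted p = 1.04e-07), and all erlotinib libraries lay well above all DMSO libraries. Within a library, the ratio of PSMB10 to PSMB7 reads was 2.87, 2.33 and 2.71 in DMSO and 8.83, 7.64 and 8.42 with erlotinib, a 3.16-fold higher ratio. The groups did not overlap, and the exact two-sided permutation test gave p = 0.1, the smallest that 3 against 3 libraries allow (adjusted p = 0.1 over 3 ratios). With PSMB5 or PSMB6 in the place of PSMB7, alternatives added after the data were seen, the log2 difference of the ratio was 1.66 and 1.36, against 1.66 with PSMB7.

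**Figure D3:**
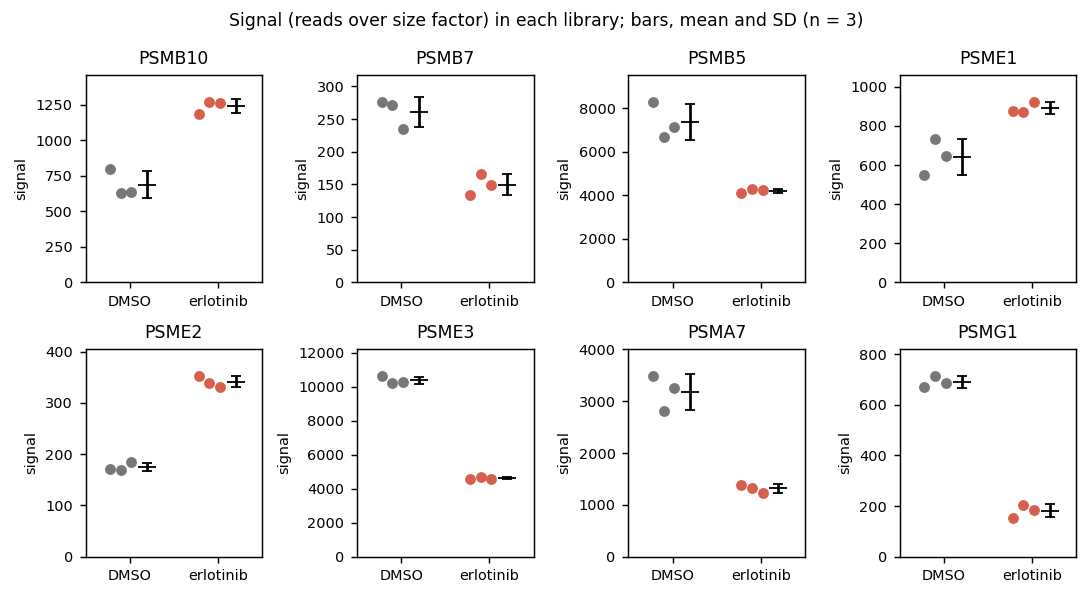
Signal (reads over the size factor, vertical axes, each from 0) of 8 proteasome genes in the 3 DMSO libraries (grey) and the 3 erlotinib libraries (red), with the mean and SD beside them. PSMB10, PSME1 and PSME2 are higher in every erlotinib library, and PSMB7, PSMB5, PSME3, PSMA7 and PSMG1 are lower.

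The other inducible subunits could not be followed. PSMB8 (chr6:32840717-32844047, minus strand), PSMB9 (chr6:32854192-32859851, plus strand) and the structural subunit PSMB3 (chr17:38752741-38764225, plus strand) were listed at 0 in all 6 libraries. Every cell needs PSMB3, so its 0 says nothing about expression. All exon windows of 100 bases in these genes, 530 for PSMB8, 455 for PSMB9 and 182 for PSMB3, occur a second time in hg38 on its alternate contigs, 7 of them for PSMB8 and for PSMB9 and 1 for PSMB3. The deposited table holds uniquely mapped reads, and whether the genome used for mapping held these contigs is not given in the sources used here. All other proteasome genes had at least 82.6% of their windows at a single place. The thymic subunit PSMB11 and the testis subunit PSMA8 had all of their 1750 and 1137 windows at a single place, and PSMB11 had 2 reads in 1 erlotinib library and none elsewhere. For PSMB3, PSMB8 and PSMB9 no level or change is given.

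**Figure D4:**
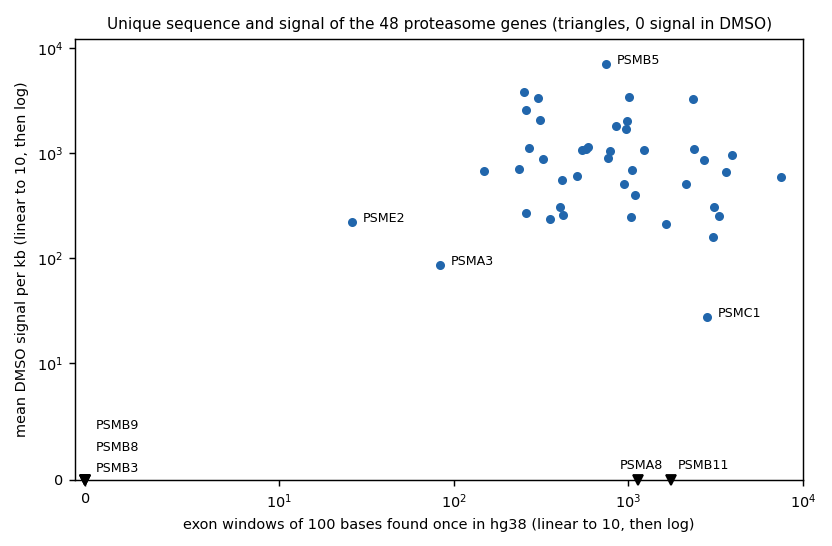
Mean DMSO signal per kb of transcript (vertical axis) against the number of exon windows of 100 bases found once in hg38 (horizontal axis) for the 48 proteasome genes, both axes linear to 10 and then log. PSMB3, PSMB8 and PSMB9 sit at 0 windows and 0 signal, while PSMA8 and PSMB11 have 1137 and 1750 unique windows and no signal in DMSO.

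In the 19S cap, 15 of 17 genes fell and none rose, and the median log2 fold change was -0.84. The ATPases of the base, which unfold the substrate, had 5 of 6 genes lower. PSMC3 gave 375, 391 and 409.9 in DMSO and 206, 155 and 171 with erlotinib (log2 fold change -1.15, SE 0.14, adjusted p = 2.59e-07). PSMC4 gave 1493, 1566 and 1590.5 in DMSO and 861, 771 and 855 with erlotinib (log2 fold change -0.90, SE 0.08, adjusted p = 4.12e-09). PSMC5, PSMC2 and PSMC6 fell by 0.74, 0.49 and 0.49 log2 units. The sixth ATPase, PSMC1, was low, with 106, 128 and 127 in DMSO and 98.7, 82.2 and 109 with erlotinib, and its interval ran from -0.73 to 0.09 log2 units. Erlotinib library 3 lay above DMSO library 1, and the other erlotinib libraries lay below the DMSO range.

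PSMD1 and PSMD2, the large scaffolds of the base, fell, while PSMD4, a receptor for ubiquitin chains, did not pass the threshold. PSMD1 gave 2299, 2318 and 2162 in DMSO and 948, 950.4 and 951 with erlotinib (log2 fold change -1.25, SE 0.07, adjusted p = 5.26e-12). PSMD2 gave 1580.2, 1248 and 1562 in DMSO and 737, 868 and 633 with erlotinib (log2 fold change -0.97, SE 0.11, adjusted p = 1.10e-07). PSMD4 gave 397, 384 and 423 in DMSO and 413, 284 and 361 with erlotinib, in which erlotinib library 1 lay among the DMSO libraries and the others below them, with an interval of -0.48 to 0.08 log2 units. Among the 43 tested genes, PSMC1 (17.4%) and PSMD4 (4.5%) had the largest shares of exon windows of 100 bases that occur again in the genome, while none of the 83 windows of PSMA3 did. The part of repeated sequence in their values was not tested.

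All 8 lid genes fell, by a median of -0.85 on the log2 scale. PSMD12, a scaffold of the lid, gave 1096, 1135 and 1037 in DMSO and 456, 468 and 373 with erlotinib (log2 fold change -1.34, SE 0.10, adjusted p = 2.75e-10). PSMD11, another scaffold, gave 3344, 3184 and 3244 in DMSO and 1334, 1440.4 and 1288 with erlotinib (log2 fold change -1.27, SE 0.07, adjusted p = 2.36e-12). PSMD14, the deubiquitinase that cuts the ubiquitin chain from the substrate, was 1648 ± 203 in DMSO and 734 ± 53.0 with erlotinib (SD, n = 3) and was also among the larger falls (log2 fold change -1.16, SE 0.09, adjusted p = 6.48e-10). The remaining 5 lid genes (PSMD3, PSMD6, PSMD7, PSMD8 and PSMD13) had log2 fold changes between -0.86 and -0.66. No lid gene had overlapping groups. Their log2 fold changes ran from -1.34 to -0.66, and those of the base from -1.25 to -0.20. In the base, PSMC1 and PSMD4, which did not pass the threshold, had the smallest changes. The difference between the ranges was not tested.

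The chaperones that assemble the base fell as well. PSMD10, also known as gankyrin, gave 2305, 2732 and 2386 in DMSO and 1522, 1437 and 1456 with erlotinib (log2 fold change -0.75, SE 0.08, adjusted p = 3.33e-08). PSMD5 gave 3632, 3869.8 and 3428 in DMSO and 2434, 2495 and 2276 with erlotinib (log2 fold change -0.60, SE 0.07, adjusted p = 1.94e-07). PSMD9 had the smallest fall of the 37 genes that fell, 1374 ± 60.0 in DMSO and 1116 ± 12.1 with erlotinib (SD, n = 3) (log2 fold change -0.30, SE 0.08, adjusted p = 0.00196), and after scaling to the total count it did not pass the threshold (adjusted p = 0.172).

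The cap and the core were compared by their summed reads. The 20S sum took in all alpha and beta genes, the inducible PSMB10 among them. Summed reads of the 19S genes over this sum were 1.04, 1.06 and 1.10 in the DMSO libraries and 1.02, 0.984 and 0.974 in the erlotinib libraries. The ratio was 0.929 times as high with erlotinib, with no overlap and an exact two-sided permutation p of 0.1 (adjusted p = 0.1 over 3 ratios), the smallest possible here. The log2 difference was -0.11, and -0.16 with reads per kilobase of transcript. PSMB10, which rose, gave 700, 679 and 595 reads of the 20S sum in DMSO and 1281, 1283 and 1347 with erlotinib. The part of PSMB10 in the lower ratio was not tested, so these values do not give the change of the cap against the standard core.

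The chaperones of the core held the largest fall of all the proteasome genes. All 4 fell, with a median of -0.88 on the log2 scale. PSMG1, which with PSMG2 starts the alpha ring (chr21:39174769-39183451, minus strand), gave 669, 714 and 688 in DMSO and 154, 206 and 183 with erlotinib (log2 fold change -1.93, SE 0.13, adjusted p = 2.02e-11), so that erlotinib libraries held 0.262 times the DMSO level. PSMG3 gave 1437, 1555 and 1560.5 in DMSO and 687, 695 and 710.5 with erlotinib (log2 fold change -1.12, SE 0.08, adjusted p = 1.35e-10). PSMG4, the partner of PSMG3, and PSMG2 fell by 0.64 and 0.56 log2 units. The partners of each pair thus fell by unequal amounts. The difference between partners was not tested.

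The activators of the core split into 2 directions. PSME1 and PSME2 encode the subunits of the interferon-inducible PA28 cap and are neighbours on chromosome 14. PSME2 (chr14:24143365-24146610, minus strand) gave 171, 169 and 184 in DMSO and 353, 339.6 and 331 with erlotinib (log2 fold change 0.96, SE 0.13, adjusted p = 1.66e-06). PSME1 (chr14:24136194-24138962, plus strand) was 643 ± 91.9 in DMSO and 891 ± 28.9 with erlotinib (SD, n = 3) and rose by 0.48 log2 units (SE 0.10, adjusted p = 3.43e-04). For both, the lowest erlotinib library exceeded the highest DMSO library. PSME3, which encodes the related nuclear activator, had the highest signal of all the proteasome genes in DMSO and fell, with 10625, 10191 and 10266 in DMSO and 4595, 4694 and 4567 with erlotinib (log2 fold change -1.17, SE 0.06, adjusted p = 5.33e-13). PSME4, another nuclear activator, and PSMF1, a regulator that binds the core, fell by 0.65 and 0.60 log2 units. Summed reads of PSME1 and PSME2 over summed reads of the alpha ring were 0.0774, 0.0905 and 0.0900 in DMSO and 0.245, 0.249 and 0.265 with erlotinib, a 2.94-fold higher ratio (exact two-sided permutation p = 0.1, adjusted p = 0.1 over 3 ratios, the smallest possible). These 3 ratios do not depend on the scaling of a library.

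**Figure D5:**
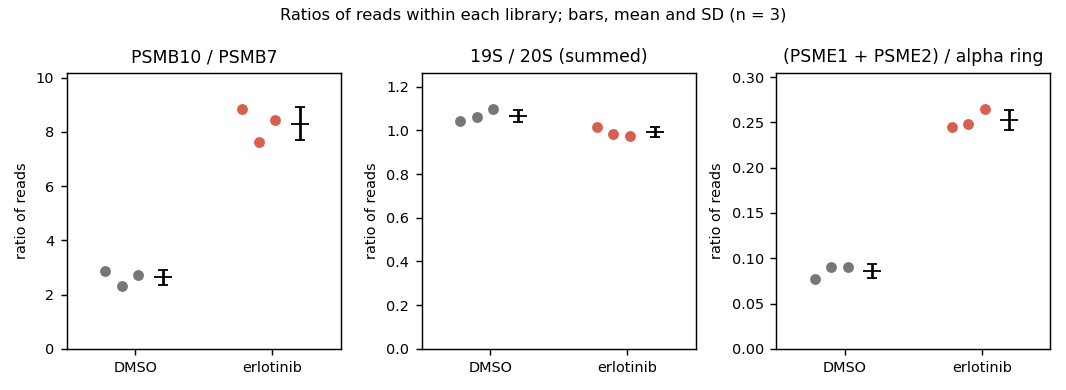
Ratio of reads within each library (vertical axes, each from 0) of PSMB10 to PSMB7, of summed 19S to summed 20S genes and of PSME1 plus PSME2 to the alpha ring, in 3 DMSO (grey) and 3 erlotinib (red) libraries, with the mean and SD. The first and the last ratio are 3.16-fold and 2.94-fold higher with erlotinib, and the ratio of cap to core, with PSMB10 counted in the core, is 0.929 times as high.

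The promoters of the 3 genes that rose are shown because they moved against the other proteasome genes and because interferon-stimulated genes often carry a repeated GAAA element. The sequences are the 250 bases before the RefSeq start (GRCh38.p14) on the gene's strand, of PSMB10 at chr16:67936851-67937100, minus strand, of PSME2 at chr14:24146611-24146860, minus strand and of PSME1 at chr14:24135944-24136193, plus strand. Capitals mark a match to GAAANNGAAA, searched on both strands.
PSMB10: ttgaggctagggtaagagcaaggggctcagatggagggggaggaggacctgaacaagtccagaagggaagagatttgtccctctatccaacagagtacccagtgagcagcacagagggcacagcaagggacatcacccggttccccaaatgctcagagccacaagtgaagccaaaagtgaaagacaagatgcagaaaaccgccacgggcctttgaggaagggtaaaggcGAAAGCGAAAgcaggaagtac
PSME2: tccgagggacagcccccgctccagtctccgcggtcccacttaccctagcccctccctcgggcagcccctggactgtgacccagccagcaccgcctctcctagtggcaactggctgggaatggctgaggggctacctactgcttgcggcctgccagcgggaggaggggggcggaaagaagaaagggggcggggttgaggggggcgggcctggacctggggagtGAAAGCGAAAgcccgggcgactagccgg
PSME1: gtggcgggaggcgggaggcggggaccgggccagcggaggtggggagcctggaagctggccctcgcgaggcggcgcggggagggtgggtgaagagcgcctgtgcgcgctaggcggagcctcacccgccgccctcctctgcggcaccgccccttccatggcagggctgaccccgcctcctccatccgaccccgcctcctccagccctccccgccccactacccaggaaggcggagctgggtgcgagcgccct
PSMB10 and PSME2 hold the same run, GAAAGCGAAA, 21 to 12 bases before the start in PSMB10 and 28 to 19 bases before it in PSME2. PSME1 has no match in this window. Of 35116 promoters of that length, 3.02% held this motif, against 9.8% (5) of the 51 promoters on file for 42 of the proteasome genes. The 5 genes were PSMB10 and PSME2, which rose, and PSMA4, PSMB4 and PSMG4, which fell, so the match did not go with 1 direction.

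Of 12 motifs searched in this way, some others were also more frequent in the proteasome promoters, while GGGANNNNCC, the NF-kB type (22.6% of all and 19.6% of the proteasome promoters), and CACGTG, the E-box (6.34% and 5.88%), were not. The letters CCGGAAG, read by ETS factors, were found in 8.52% of all promoters and in 21.6% (11) of the proteasome promoters, and of these genes 10 fell, none rose and 1 was not tested, where 86.0% of all tested proteasome genes fell. TTCNNNGAA, the element that STAT factors read, was found in 6.57% and 13.7% (7), and of these genes 5 fell, none rose and 2 were not tested. The letters TGACNNNGC, the core of the antioxidant element that NFE2L1 and NFE2L2 read with MAF partners, were found in 10.9% of all promoters and in 25.5% (13) of the proteasome promoters, of which 9 belonged to genes that fell and 2 to genes that rose (PSME1 and PSME2) and 2 to genes not tested. For GGGCGG, the GC box, the shares were 42.6% and 60.8%, in 26 genes of which 21 fell, 2 rose and 2 were not tested. For CCAAT they were 32% and 37.3% (19), of which 15 belonged to genes that fell, none to a gene that rose and 3 to genes not tested. TGACGTCA, the cyclic AMP element, was in 1.65% of all promoters and in none of the 51. A match describes the sequence and is not evidence of binding.

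The proteasome genes took a smaller share of all reads with erlotinib. They held 0.3880%, 0.3917% and 0.3869% of all gene reads with DMSO alone and 0.2556%, 0.2565% and 0.2502% in the erlotinib libraries, means of 0.389% ± 0.0025 and 0.254% ± 0.0034 (SD, n = 3, exact two-sided permutation p = 0.1, the smallest possible). The median proteasome gene lay at -0.71, -0.71 and -0.73 log2 units from its DMSO mean in the 3 erlotinib libraries, and between -0.03 and 0.04 in the DMSO libraries. The 3 erlotinib libraries were alike in this.

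Levels differed widely between genes whose products stand in equal number in the core. Per kb of transcript, the 13 measured 20S genes without the inducible ones ran in DMSO from a signal of 85.9 for PSMA3 to 7055 for PSMB5, an 82.1-fold range. The reads were aligned without splitting them across introns, so that genes of short exons can lose reads, and the part of this in the levels was not tested. The number of 100-base windows per 100 bases of transcript had a Spearman rho of 0.03 with the signal per kb and of -0.32 with the log2 fold change over the 43 tested genes, which share the same 6 libraries. The signal per kb had a rho of -0.30 with the log2 fold change. Among the tested genes, PSME2, PSMA3, PSME1, PSMC5 and PSMB10 had the fewest windows per 100 bases (3.28, 8.69, 15.4, 20.2 and 24.3), and PSME2 had 26 windows in all. They include every proteasome gene that rose, while PSMC5 fell and PSMA3 did not pass the threshold. The part of short exons in the rises was not tested. These are descriptions across genes, which are not independent.

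The 48 genes lie on 17 chromosomes, with 8 on chromosome 14 and 7 on chromosome 17, and some share a promoter region with a gene read in the other direction. Of 8 tested partners that start within 1000 bases head to head, 4 fell, 3 rose and 1 did not pass the threshold, where 35.4% of all genes tested fell and 35.3% rose. MRPL32, a mitochondrial ribosomal gene that starts 202 bases from PSMA2, fell by 0.56 log2 units (adjusted p = 1.51e-05 in limma), and CEP76, a centrosomal gene 265 bases from PSMG2, fell by 1.20 (adjusted p = 6.77e-07). FTSJ3 beside PSMC5 and ATG4A beside PSMD10 fell by 0.76 and 0.58. CEP76, FTSJ3 and ATG4A also overlap their proteasome gene, so reads may be shared. SIRT3, a mitochondrial deacetylase that starts 45 bases from PSMD13, rose instead, by 0.53 log2 units (adjusted p = 0.00017), while PSMD13 fell by 0.82. RNF31, part of the linear ubiquitin ligase, starts 265 bases from PSME2 and rose with it, by 0.37 (adjusted p = 0.000661). HPD, beside PSMD9, rose from a low signal of 15.2 to 33.2 (log2 fold change 1.175, adjusted p = 0.0243), a call that was lost without DMSO library 2 (adjusted p = 0.0890), erlotinib library 1 (0.108) or erlotinib library 2 (0.0738). Genes that overlap a proteasome gene can also share its reads. PSMA3-AS1, which overlaps PSMA3, reached 851 ± 51.9 in DMSO and 983 ± 61.7 with erlotinib (SD, n = 3), far above that of PSMA3 itself, and NRDE2 and PMPCB, which overlap PSMC1 and PSMC2, rose by 0.49 and 0.37 log2 units, while SPIRE1, which overlaps PSMG2, fell by 0.60 (adjusted p = 3.73e-07). The call of NRDE2 was lost without erlotinib library 1 (adjusted p = 0.0602) or 3 (0.0557).

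Genes that work with the proteasome without carrying its name were counted in 4 lists, where 35.4% of all genes tested fell and 35.3% rose. Of 13 subunits and partners, 9 fell, 1 rose and 3 did not pass the threshold, with a median log2 fold change of -0.43. UCHL5, a deubiquitinase of the cap, gave 1719, 1964 and 1701 in DMSO and 419.9, 497 and 473 with erlotinib (log2 fold change -1.95, SE 0.09, adjusted p = 1.51e-13). POMP, the chaperone that matures the beta rings, was 684 ± 111 in DMSO and 308 ± 7.05 with erlotinib (SD, n = 3) (log2 fold change -1.14, SE 0.12, adjusted p = 3.17e-08). ZFAND5, which binds the proteasome and stimulates it, rose (log2 fold change 0.89, SE 0.06, adjusted p = 3.31e-11). Of 6 tested shuttle factors, which carry ubiquitinated proteins to the cap, 5 fell and none rose (median -0.58), led by RAD23B at -1.05, and DDI1 had no reads. All 6 ubiquitin and ubiquitin-activating genes fell (median -0.41), with RPS27A at -0.84 and UBA6 at -0.78, but between 4 and 6 of them did under the alternatives. Of 8 genes of VCP, the segregase that pulls proteins out of complexes for the proteasome, and its cofactors, 5 fell, 2 rose and 1 did not pass, with FAF1 at -0.60, VCP at -0.56 and UBXN1 at 0.49. UBXN7, at 0.22, had overlapping groups, and its call was lost without DMSO library 1 or 3 or erlotinib library 2 or 3 (adjusted p between 0.0706 and 0.197).

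NFE2L1 is the transcription factor that restores proteasome genes when the proteasome is blocked. NFE2L1 gave 7317, 6572 and 6550.2 in DMSO and 8680.0, 9001 and 8712 with erlotinib and rose (log2 fold change 0.37, SE 0.06, adjusted p = 3.18e-05). NFE2L2, its relative in oxidative stress, rose less (log2 fold change 0.25, SE 0.08, adjusted p = 0.00557), with groups that overlapped. When libraries were scaled to the total count, the log2 fold change of NFE2L2 was 0.43. MAFF, one of the small MAF partners, gave 873, 857 and 1031 in DMSO and 399.6, 425 and 442 with erlotinib and fell (log2 fold change -1.12, SE 0.10, adjusted p = 4.10e-09). DDI2, the protease that activates NFE2L1, fell by 0.47 log2 units (adjusted p = 0.0103), a call that was lost without DMSO library 3 (adjusted p = 0.0578) and when libraries were scaled to the total count (log2 fold change -0.29, adjusted p = 0.105). In all, 3 of these 7 genes fell, 3 rose and 1 did not pass the threshold, where 35.4% of all genes tested fell and 35.3% rose. Their median was -0.02. Scaled to the total count, 1 of them fell and 3 rose. With an adjusted p under 0.01, 1 fell and 2 rose.

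The genes of peptide loading and MHC class I, which use the peptides that the immunoproteasome makes, were only partly measured. Of 12 genes, 6 were tested, of which 4 rose and 2 fell, against 35.3% and 35.4% of all genes tested. Of the 4 that rose, 3 had every erlotinib library above every DMSO library. Between 3 and 5 genes rose under the alternatives. ERAP1, which trims peptides, rose (log2 fold change 0.84, SE 0.07, adjusted p = 1.08e-09). CALR and PDIA3, general chaperones of the endoplasmic reticulum that also load peptides, fell by 0.63 and 0.46 log2 units. TAP1, TAP2, HLA-B and HLA-C were listed at 0 in all libraries, and 0%, 2.2%, 46.3% and 20.4% of their windows are unique in hg38 with its alternate contigs, so no change is given for them. Among the factors of the interferon response, all 5 that were tested rose, with a median of 0.87, where 35.3% of all genes tested rose. STAT2 gave 947, 1078 and 1010.4 in DMSO and 3662, 3679 and 3619.8 with erlotinib (log2 fold change 1.85, SE 0.07, adjusted p = 7.51e-15), and IRF9, its partner in the interferon complex, gave 413, 388 and 398 in DMSO and 1033, 1055 and 1255 with erlotinib (log2 fold change 1.47, SE 0.10, adjusted p = 3.89e-11). Their groups were far apart. These genes moved in the same direction as PSMB10, PSME1 and PSME2, and whether they act on them was not tested.

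The chaperonin CCT, a large ring complex of different subunits that folds actin and tubulin, was set beside the proteasome as another complex of the cytosol. All 8 of its genes fell, by a median of -1.07 on the log2 scale, from -1.38 for CCT5 and -1.34 for CCT6A to -0.94, where 35.4% of all genes tested fell. The CCT median was below the median of the proteasome genes, -0.70, and every CCT gene fell by more than that.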

How the data were processed

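The authors mapped paired-end reads of HCC827 libraries to GRCh38 with Bowtie2 2.3.4, counted the uniquely mapped ones for each gene with featureCounts 1.6.3 and used DESeq2 1.18.1. The signal values they deposited are reads divided by a size factor per library, since multiplying by that factor gives whole reads (100% of values, tolerance 0.01). The strand counted is not given in the sources used here. The main test was limma 3.58.1 (R 4.3.3) on log2(signal + 1) for 14215 genes whose mean signal reached 10, with variance trend, two-sided, Benjamini-Hochberg adjustment and a threshold of 0.05. edgeR 4.0.16 and DESeq2 1.42.0 on the recovered reads were alternatives, with other scalings, filters, pseudocounts, a threshold of 0.01 and each library left out. Ratios and shares used exact permutation tests. Repeated sequence was searched for as exact 100-base exon windows of GENCODE transcripts in hg38 with 261 alternate contigs, on both strands. Neighbours and promoters came from RefSeq. The proteasome genes, the lists and the tests were chosen with earlier results of these data known. Named beside the proteasome genes were the 2 largest rises and 2 largest falls of each list, genes without reads, and overlapping or head-to-head neighbours. Some genes that this rule names are not reported here. EPCAM, KRT19 and the untested leukocyte markers were named for the cell type check. The fit was tested on simulated data, whose results are not reported here.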

Additional observations from a re-analysis of the deposited data

How the results depend on the processing

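Under 15 alternatives, between 35 and 37 proteasome genes fell and 3 rose. Their median log2 fold change was -0.52 when libraries were scaled to the total count, where the median of all genes tested was 0.19, and -0.75 to -0.71 when single libraries were left out. Scaled to the total count, 3 partners rose, 3 shuttle factors fell and 1 gene of the NFE2L1 list fell, and EPCAM was at 0.12. Under this scaling PSMB6 was at -0.32 and PSMC2 and PSMC6 at -0.31, all still past the threshold. With an adjusted p under 0.01, 1 gene of the NFE2L1 list fell and 1 VCP gene rose. Leaving out a library gave 1 to 2 rising VCP genes, and values of PSMA3, which was not called, as low as -0.0655 (without DMSO library 1) and -0.0220 (without erlotinib library 3). The causes were not tested. Of the values of single proteasome genes under alternatives, 636 kept their direction and side of the threshold, 7 (PSMA6 and PSMD9) lost the threshold and the 2 of PSMA3 changed sign. DESeq2 and edgeR with TMM factors gave 37 falls and 3 rises, as limma did.

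No paired analysis was possible because the labels number the samples of both groups 1 to 3, but the table numbers its erlotinib columns 4 to 6 and does not match them to those samples. Low signal limits the precision for PSMA3 and PSMC1, and nothing can be said of PSMB3, PSMB8 and PSMB9.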

Other observations

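PSMC3IP and PSMG3-AS1, with names that begin like those of the proteasome, lie outside the name rule, and were picked after their values were seen. PSMC3IP, a partner of meiotic and recombination proteins and not a proteasome subunit, reached a signal of 166 ± 13.8 in the DMSO group and 35.5 ± 2.77 in the erlotinib group (SD, n = 3, log2 fold change -2.19, SE 0.22, limma adjusted p = 1.61e-08), a larger fall than that of any proteasome gene tested. PSMG3-AS1, a non-coding RNA named as antisense to PSMG3, was not among the 8 head-to-head partners tested above. It had 115 ± 13.4 in DMSO and 313 ± 47.6 with erlotinib (log2 fold change 1.43, SE 0.16, limma adjusted p = 9.03e-08), while PSMG3 fell by 1.12 log2 units. In both genes the groups did not overlap.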
